A study of Homo sapiens with 6 samples.

Results

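The genes described here are the long intergenic noncoding RNAs (lincRNAs) of a human cell line in which the transcription factor FOXM1 was induced. They were chosen as the genes whose biotype is given as lincRNA in the authors' deposited comparison table, and there are 355 of them among its 13008 genes. The cells were Tet-FLAG-FOXM1c-hTERT-RPE1, a line derived from retinal pigment epithelium, immortalised with telomerase and carrying a FLAG-tagged FOXM1c transgene under tetracycline control. The 3 dox libraries (genotype label FOXM1 overexpression) came from cells given doxycycline at 1 µg/mL each 24 h over 48 h, and the 3 no dox libraries (genotype label WT) from cells of the same line label without doxycycline. Nothing in the labels says that replicates were grown apart, so every p-value measures the spread of these 6 libraries and that spread may be technical. A line with no transgene and with doxycycline was not analysed here, and the effects of doxycycline and of induced FOXM1 cannot be told apart. Whether the line is 1 clone is not stated in the labels.

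LincRNAs are transcripts of RNA polymerase II, in most cases capped, spliced and polyadenylated, that lie between protein-coding genes and are not thought to encode long proteins. Some act in the nucleus, such as MALAT1 in nuclear speckles and NEAT1 in paraspeckles, some act in the cytoplasm, such as NORAD, which binds PUMILIO proteins, and others serve mainly as carriers of small nucleolar RNAs or microRNAs in their introns or exons. Many more are known only as annotated transcripts, often under the name of the genomic clone they were found on, which is the case for 241 of these 355 genes. FOXM1 is a forkhead factor that acts with the MuvB complex on genes of late cell cycle phases, whose promoters hold a cell cycle homology element (core TTTGAA), and the forkhead core motif is TAAACA.

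Promoter sequences are shown for 3 genes on which the results turn: LINC00704 (also named MANCR, a mitotically associated RNA), which fell, and a pair of snoRNA host genes that moved in opposite directions, RP11-304L19.5 (SNHG19) and SNHG8. The sequences are from RefSeq on GRCh38.p14 and run from 250 bases before to 50 bases after the start. Capitals mark TTTGAA, the forkhead core TAAACA and the CCAAT box on either strand (written TTCAAA, or ATTGG, where the match is on the reverse strand). LINC00704 lies at chr10:4678021-4678320 on the minus strand, SNHG19 at chr16:2155309-2155608 on the minus strand and SNHG8 at chr4:118278512-118278811 on the plus strand.
LINC00704: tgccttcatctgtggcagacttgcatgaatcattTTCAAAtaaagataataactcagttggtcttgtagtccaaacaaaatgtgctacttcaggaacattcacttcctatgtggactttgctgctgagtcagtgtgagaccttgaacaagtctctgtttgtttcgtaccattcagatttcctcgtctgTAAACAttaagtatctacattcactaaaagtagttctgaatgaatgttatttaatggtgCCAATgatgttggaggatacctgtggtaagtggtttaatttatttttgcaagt
RP11-304L19.5 (SNHG19): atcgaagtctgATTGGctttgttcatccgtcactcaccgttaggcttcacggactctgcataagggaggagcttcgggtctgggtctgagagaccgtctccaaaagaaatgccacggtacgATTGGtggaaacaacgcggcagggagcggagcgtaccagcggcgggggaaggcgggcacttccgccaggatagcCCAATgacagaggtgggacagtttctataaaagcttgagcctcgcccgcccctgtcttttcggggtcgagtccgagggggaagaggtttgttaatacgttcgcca
SNHG8: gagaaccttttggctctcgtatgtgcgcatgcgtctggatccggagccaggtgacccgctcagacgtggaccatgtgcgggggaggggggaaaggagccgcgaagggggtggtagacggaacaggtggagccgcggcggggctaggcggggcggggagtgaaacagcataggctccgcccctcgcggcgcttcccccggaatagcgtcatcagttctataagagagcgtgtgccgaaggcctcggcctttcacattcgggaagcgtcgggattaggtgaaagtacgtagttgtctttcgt

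The LINC00704 window holds TTTGAA 216 bases, TAAACA 62 bases and CCAAT 3 bases before the start, the SNHG19 window holds CCAAT at 3 places, and the SNHG8 window holds none of these nor CACGTG. Promoters were found for 102 of the 355 lincRNAs. TTTGAA was present in 10.8% of them and in 15.2% of all 35116 promoters of the table, TAAACA in 11.8% and 12.3%, CCAAT in 40.2% and 34.6%, and CACGTG in 9.80% and 7.26%. A match is a description of the letters and does not show a binding site.

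FOXM1 mRNA stood at 69032 ± 5205 normalised counts (SD, n = 3) with dox and at 4562 ± 390.2 (SD, n = 3) without, a log2 difference of 3.92 (SE 0.10, limma adjusted p = 4.49e-06). Counts per gene do not separate the transgene from the endogenous gene. Library totals ran from 15094498 reads in no dox replicate 3 to 49882123 in dox replicate 2, and the median lincRNA had 37 reads in the former and 133 in the latter. Of 10 fixed markers of retinal pigment epithelium, 8 were under 0.5 FPKM in every library (RPE65 at most 0.220, RLBP1 at most 0.0268), while MITF (2.06 to 2.23) and OTX2 (1.91 to 3.14) were present. Of 6 markers of fibroblasts or mesenchyme, 5 lay between 5.64 (COL1A1) and 396 FPKM (VIM) and COL3A1 was at most 0.0299, and of 6 epithelial markers KRT8, KRT18 and TJP1 lay between 3.90 and 65.2, CDH1 (at most 0.0106) and KRT19 (at most 0.0690) were near 0 and EPCAM was listed at 0. All 4 blood markers were under 0.5 FPKM. In bulk RNA, fewer cells of a type and less RNA per cell cannot be told apart.

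The first question was which lincRNAs differed between dox and no dox cells. Of the 354 lincRNAs that passed the filter on low values, 3 changed in the limma test without a block, SNHG8 and GS1-600G8.5 upward and LINC00704 downward. That is 0.847% of them, beside 0.54% of all 13153 genes tested (0.319% higher and 0.22% lower). By edgeR's quasi-likelihood test on recovered reads 3 lincRNAs were called (background 0.515%, 0.323% higher and 0.192% lower), and by DESeq2 8 (background 4.01%, 1.68% higher and 2.34% lower). At an unadjusted p under 0.05 in limma there were 30 lincRNAs (8.47%), beside 13.0% of all genes. Libraries with the same replicate number deviated together, so the fit was repeated with the replicate number as a block, and then 42 lincRNAs changed, 16 upward and 26 downward. That is 11.9% of the lincRNAs, below the background of 22.5% of all genes (10.2% higher and 12.4% lower), and 2 of the rises and 1 of the falls were at least 2-fold (0.844% of all genes). edgeR's test with the same block called 43, 17 higher and 26 lower, beside 23.4% of all genes (11.4% and 12.0%). When any 1 of the 6 libraries was left out, limma without the block called 0 lincRNAs, with 22 to 38 at an unadjusted p under 0.05 and 3 to 21 calls over all genes.

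**Figure D1:**
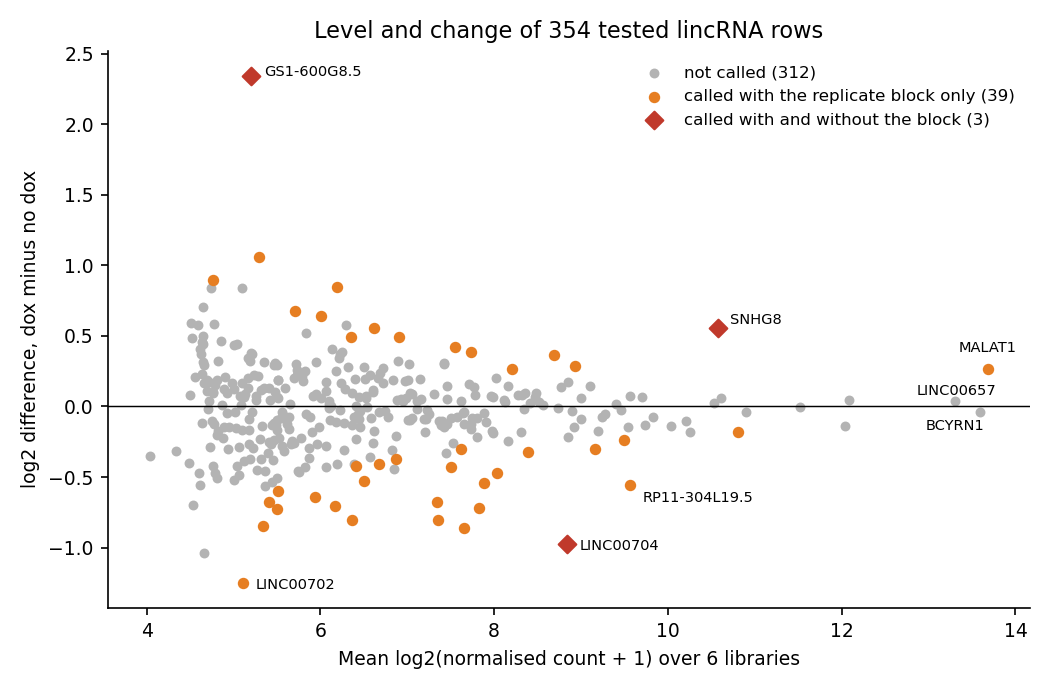
Mean level (log2 of normalised count + 1 over 6 libraries, x axis) against the log2 difference of dox minus no dox (y axis) of the 354 tested lincRNAs, with red diamonds for the 3 called with and without the replicate block, orange for the 39 called with the block only and grey for the other 312. Most points lie within 1 log2 unit of 0, the spread is wider at low levels, and GS1-600G8.5 at 2.34 stands above all others.

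LINC00704 had the fall with the smallest p. Its normalised counts were 285, 309.7 and 393 with dox (replicates 1, 2 and 3) and 607, 654 and 668.5 without. The highest dox library lay well below the lowest no dox library. The means were 329 ± 56.8 and 643 ± 31.9 (SD, n = 3 each), which differ by -0.98 on the log2 scale with SE 0.13 (adjusted p by limma 0.0411 without and 0.000102 with the block). The gene (ENSG00000231298) is on chromosome 10 from 4692377 to 4720346 of hg19, minus strand, and 335 to 743 reads per library stood behind its values. The nearest coding gene of the table, the steroid dehydrogenase gene AKR1C1, lies 214450 bases away and differed by -0.52 (adjusted p = 0.612).

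LINC00702 is a separate lincRNA on the same strand of chromosome 10, 406273 bases from LINC00704. Its counts were 20.6, 23.1 and 20.8 in dox and 49.2, 59.3 and 49.2 in no dox replicates 1, 2 and 3. The groups were far apart and the pairs differed by -1.22, -1.33 and -1.20. The log2 change of -1.25 (SE 0.23) had a limma adjusted p of 0.0640 without and 0.00208 with the block, on 17 to 67 reads per library. It was the only fall of at least 2-fold among the lincRNAs called with the block. The nearest coding gene, the zinc finger factor KLF6, 415860 bases away, was at 3386 ± 570.4 with dox and 4304 ± 439 without dox, a log2 difference of -0.36 (limma adjusted p = 0.335, and 0.00107 with the block).

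SNHG8, which carries the small nucleolar RNA SNORA24 in an intron, was the most abundant lincRNA to pass without the block. Its normalised counts were 2064, 1727 and 1767 in dox and 1259, 1277 and 1228.5 in no dox replicates. The no dox libraries were within a narrow band and every dox library stood above it. The log2 change was 0.56 (SE 0.09, limma adjusted p = 0.0481, and 0.000277 with the block), with 616 to 3102 reads per library. SNHG8 (ENSG00000269893) is on chromosome 4 from 119199864 to 119200978, plus strand, 215 bases from the oppositely oriented protease gene PRSS12. PRSS12 went the other way, with 2102 ± 65.8 with dox and 2334 ± 117 without dox (log2 difference -0.15, adjusted p = 0.450, and 0.0367 with the block).

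GS1-600G8.5, named LINC02154 in GENCODE 29, had the highest fold among the lincRNAs. Its normalised counts were 79.1, 76.5 and 90.8 in dox and 11.99, 10.7 and 27.9 in no dox replicates. No dox replicate 3 was more than 2 times as high as the other no dox libraries and below every dox library. The log2 change was 2.34 (SE 0.36, limma adjusted p = 0.0477, and 0.000261 with the block), on 13 to 127 reads per library, and the pairs differed by 2.63, 2.73 and 1.67. It lies on the X chromosome from 13284167 to 13321571, minus strand, with the nearest coding gene, TMSB4X, 288821 bases away at a log2 difference of -0.10 (adjusted p = 0.934).

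When any 1 library was left out, the log2 changes of LINC00704 ran from -1.11 to -0.88, those of SNHG8 from 0.48 to 0.61 and those of GS1-600G8.5 from 2.10 to 2.75. Their lowest limma adjusted p in those fits were 0.0588, 0.0710 and 0.0506. The direction and size were thus kept while the calls were lost. The authors' deposited table gives an adjusted p under 0.05 for 6 lincRNAs (2.78% of all its genes pass), namely these 3, RP11-304L19.5, LINC00702 and CTC-436P18.3.

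**Figure D2:**
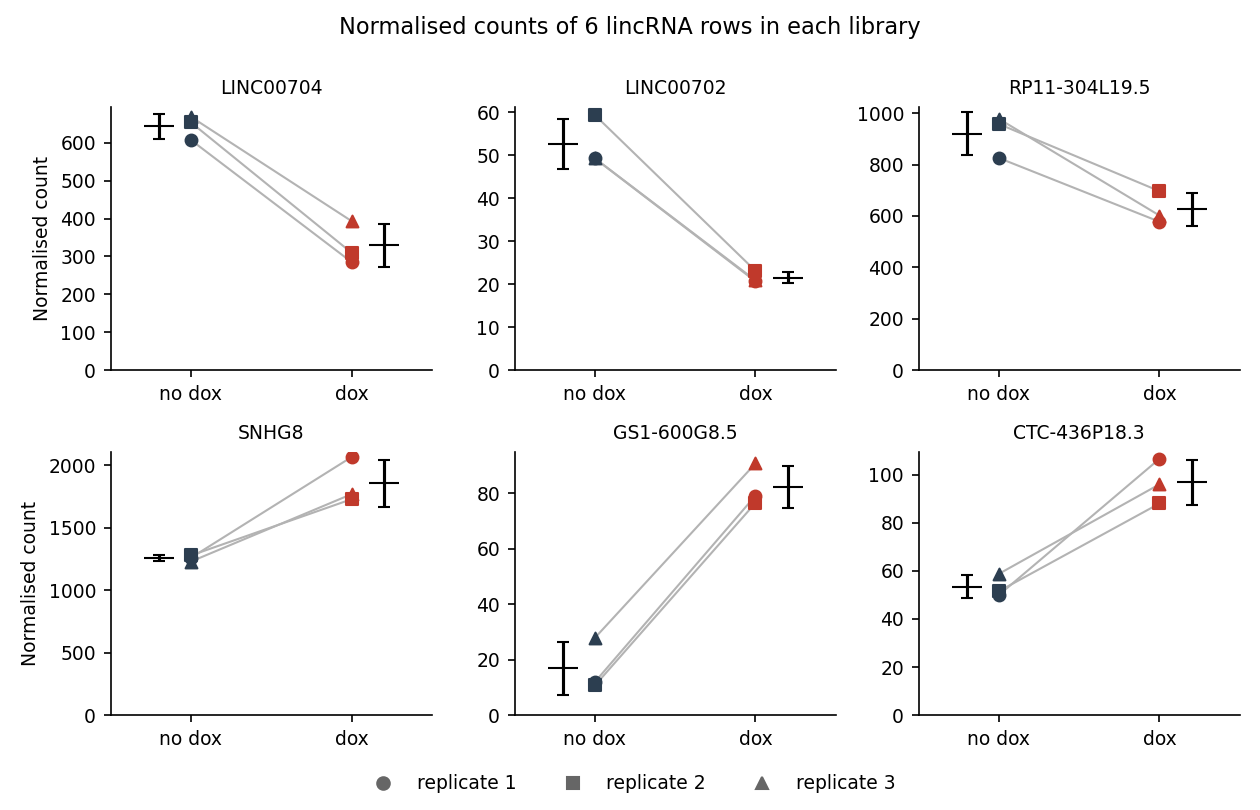
Normalised count (y axis, from 0) of 6 lincRNAs in the no dox (dark) and dox (red) libraries, with grey lines joining libraries of the same replicate number and black bars for the mean and SD of 3 libraries. In all 6 genes the dox and no dox libraries do not overlap. These genes are the ones with an adjusted p under 0.05 in the authors' comparison of the same libraries, a choice that favours separate groups. The groups did not overlap in 19.1% of all genes tested.

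Among the 26 falls with the block were genes of different positions and kinds. RP11-304L19.5, the snoRNA host SNHG19 that carries SNORD60, had counts of 578, 697 and 602 with dox and 826, 958 and 978 without dox. Its groups did not overlap, and its log2 change was -0.56 (SE 0.11, limma adjusted p = 0.0761, and 0.000451 with the block). MIR210HG, the host of the hypoxia-induced microRNA miR-210, had 70.8, 258 and 295 with dox and 208, 328 and 355 without dox. Here the libraries of replicate 1 were low in both groups, the groups overlapped, and pair 1 differed by -1.54 where the other pairs differed by -0.34 and -0.27. Its change of -0.72 (SE 0.51) had an adjusted p of 0.639 without the block and 0.0330 with it, and without the block it was -0.07 when dox replicate 1 was left out and -1.09 when dox replicate 3 was left out.

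SH3RF3-AS1 had 56.6, 55.4 and 73.0 in dox and 121, 98.7 and 105 in no dox libraries, a log2 change of -0.81 (adjusted p = 0.105, and 0.00526 with the block). CTC-296K1.3 changed by -0.84, RP5-1028K7.2 by -0.73 and RP11-222A11.1 by -0.70, and in each the groups did not overlap. CTD-2334D19.1 changed by -0.81, RP11-709B3.2 by -0.86 and LINC00669 by -0.68, and in these the groups overlapped. Without the block, LINC00669 was at -0.22 when dox replicate 1 was left out and at -1.01 when no dox replicate 1 was left out, and RP5-1028K7.2 at -0.46 without dox replicate 2. CRNDE, first described as raised in colorectal neoplasia, was at 222 ± 18.1 in dox and 309 ± 16.1 in no dox libraries, a change of -0.47 (adjusted p = 0.115, and 0.00621 with the block), while IRX5, the homeobox gene 1673 bases away on the opposite strand, differed by -0.06.

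The 16 rises with the block were led, after GS1-600G8.5, by RP11-258C19.7 on the X chromosome. Its counts were 37.8, 69.5 and 64.9 in dox and 19.7, 29.8 and 30.1 in no dox libraries, which differ by 1.06 on the log2 scale with SE 0.31 (adjusted p by limma 0.193 without and 0.00401 with the block). Replicate 1 was the lowest in each group, and all dox libraries were above all no dox libraries. The coding gene upstream on the same strand, TSPYL2, ends 80557 bases away and differed by 0.87 (adjusted p = 0.0998, and 0.000211 with the block). Across lincRNAs more than 50000 bases past such a gene, the Pearson correlation between the differences was 0.0016. CTC-436P18.3, named LINC02057 in GENCODE 29, had 107, 88.0 and 96.0 in dox and 49.97, 51.6 and 58.8 in no dox libraries, a log2 change of 0.85 (adjusted p = 0.0838, and 0.00388 with the block).

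RP3-510D11.2 is LNCTAM34A, transcribed at the locus of the p53-activated microRNA miR-34a. It had 33.0, 33.4 and 43.1 in dox and 25.6, 15.6 and 17.0 in no dox libraries, a log2 change of 0.90 (adjusted p = 0.242, and 0.0309 with the block), on 8 to 56 reads per library. All dox libraries were above all no dox libraries. CTD-2017D11.1 changed by 0.68, RP1-151F17.2 by 0.64 and RP11-690G19.3 by 0.55, with groups that did not overlap, and RP11-215G15.5 and the surfactant-associated pseudogene SFTA1P by 0.49 each, with overlapping groups. Leaving out no dox replicate 2 took CTD-2017D11.1 to 0.37 without the block, leaving out no dox replicate 1 took RP11-215G15.5 to 0.25 and SFTA1P to 0.75, and leaving out dox replicate 1 took SFTA1P to 0.32.

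**Figure D3:**
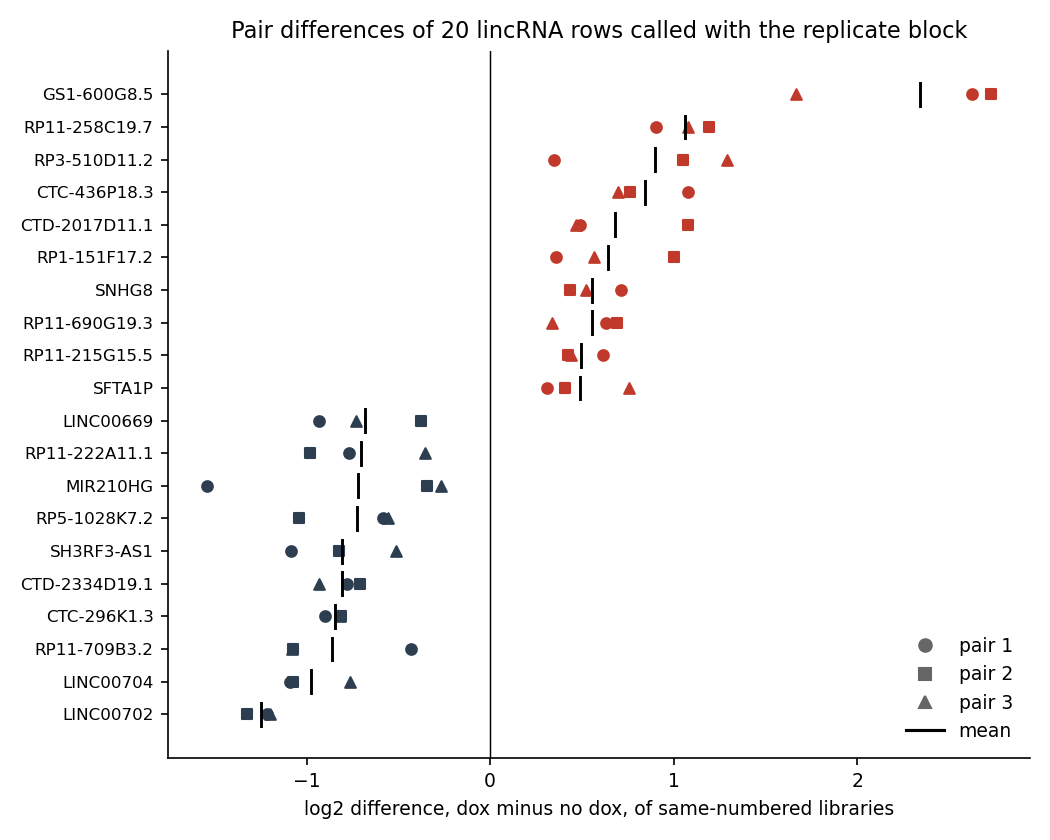
Log2 difference of dox minus no dox (x axis) in each of the 3 same-numbered pairs of libraries, for the 10 lincRNAs with the largest rise (red) and the 10 with the largest fall (dark) among those called with the replicate block, with a black bar for the mean. All differences are on the side of their gene's mean, which the choice of genes by a paired fit favours, and pair 1 of MIR210HG, at -1.54, is the farthest from its partners among the falls.

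The lists of known noncoding RNAs by role held 30 tested lincRNAs, counted once each. Without the block 1 of them was called, and with it 7 (23.3%), 4 higher and 3 lower. That share is near the 22.5% of all genes and above the 11.9% of all lincRNAs. The lists were not matched to either on level, and the counts below are not read as set apart from the background. Of 5 lincRNA-class snoRNA hosts tested, 1 rose (SNHG8) without the block, and with it SNHG8 rose and SNHG19 fell, beside 0.54% of all genes called without and 22.5% with the block. The log2 differences of SNHG15, SNHG18 and SNHG9 were 0.08, -0.08 and 0.22, with adjusted p of 0.877, 0.856 and 0.858. The median over the 5 was 0.08, beside -0.0022 over all tested genes. Another 15 snoRNA hosts are annotated under other biotypes, among them GAS5 (0.09) and ZFAS1 (0.06), and of these SNHG16 alone was called, with the block (0.16, adjusted p = 0.0304). Of 7 lincRNA-class microRNA host genes, 0 were called by limma without the block and 1, MIR210HG, fell with it. MIR155HG differed by -0.45, MIR137HG by -0.12 and MIR4435-1HG by -0.13, and the median over the 7 was -0.12. A further 8 microRNA hosts are annotated under other biotypes, and 0 of these were called without the block. With it H19 (3.04, limma adjusted p = 0.000139) and MIR600HG (1.02, 0.0271) rose and MIR31HG (-0.28, 0.0293) fell, beside 22.5% of all genes. The row named MIR29A in the deposit carries the ID of LINC-PINT in GENCODE 29, a p53-induced lincRNA, and differed by 0.09 (adjusted p = 0.863). It measures a long transcript and not the mature microRNA. Another row, filed as antisense and so not among the 355, has the same GENCODE 29 symbol, LINC-PINT, and was at 56.0 ± 2.23 with dox and 43.8 ± 14.4 without dox (SD, n = 3 each), a log2 difference of 0.41 (limma adjusted p = 0.638, and 0.198 with the block) with all dox libraries above all no dox libraries.

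Of 8 nuclear-retained or chromatin-associated lincRNAs, JPX and MALAT1 rose with the block, where 10.2% of all genes were called higher, and none passed without it. MALAT1 had 10615, 13460 and 21004.5 normalised counts with dox and 7836, 11277 and 19513 without dox in replicates 1, 2 and 3. In each group replicate 3 was the highest library and replicate 1 the lowest, and each pair was higher in dox, by 0.44, 0.26 and 0.11. Its change of 0.27 (SE 0.35) had an adjusted p of 0.840, and 0.0105 with the block, and without dox replicate 3 or no dox replicate 1 the value without the block was at or below 0 (lowest -0.04). JPX, a transcript of the X-inactivation centre, was at 543 ± 68.5 in dox and 445 ± 56.7 in no dox libraries (0.29, adjusted p = 0.417, and 0.0124 with the block), and its neighbour FTX differed by -0.11. NEAT1 had 3361, 5853 and 4418 with dox and 2689, 4969 and 5887 without dox, a difference of 0.05 (SE 0.30, adjusted p = 0.972).

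Of 5 p53- or damage-responsive lincRNAs, RP3-510D11.2 rose with the block, beside the same background of 10.2%, and the others did not pass. TP53TG1 was at 192 ± 36.1 in dox and 156 ± 36.1 in no dox libraries (0.31, adjusted p = 0.634, and 0.0534 with the block). Of 3 lincRNAs associated with growth or MYC, CRNDE fell with the block, LINC00152 (CYTOR) differed by -0.15 and LINC00511 by 0.20. LINC00116 and LINC00493, which encode the small mitochondrial proteins mitoregulin and SMIM26 and are protein-coding in GENCODE 29, differed by 0.10 and 0.14. The imprinted lincRNAs of chromosome 14 did not pass either: MEG3 was at 2967 ± 483 with dox and 2961 ± 308 without dox, MEG9 differed by -0.06 and AL132709.5 (MEG8) by -0.43 (adjusted p = 0.353, and 0.0687 with the block). The sign of MEG3, at -0.0043, turned under all 3 other scalings. RMRP, the RNA polymerase III product that is part of RNase MRP, ran from 13.9 to 106 in dox and from 24.98 to 75.2 in no dox libraries. The libraries were of polyadenylated RNA, and how fully they hold RMRP was not tested. H19, an imprinted RNA filed in the deposit as a processed transcript and so not among the 355, had 49.0, 36.2 and 96.4 in dox and 7.36, 2.97 and 8.82 in no dox libraries (3.04, adjusted p = 0.0511, and 0.000139 with the block).

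Levels per length differed widely among the lincRNAs. The median was 1.06 FPKM, 17 genes were above 10, 165 lay between 1 and 10, and 173 were below 1. The 10 highest held 35.2% of the summed FPKM of all 355. LINC00657 (NORAD) led at 79.4 FPKM on average and lay between 74.9 and 83.8 in all libraries, so that dox and no dox could not be separated (log2 difference -0.04, SE 0.08, adjusted p = 0.912). RP11-304L19.5 (SNHG19) followed at 77.8, with 58.0 to 73.6 in dox and 81.5 to 98.6 in no dox libraries. SNHG19 thus lay below the range of NORAD in dox and reached above it in no dox libraries, so which of them led depended on the group. The next were MALAT1 (33.4), RP11-572C15.6 (29.05), BCYRN1 (27.8), RP11-47A8.5 (23.2), SNHG8 (21.6), CTC-503J8.6 (19.2), LINC00973 (18.4) and RP11-343N15.5 (13.4). The ranges over libraries of MALAT1 (18.5 to 49.8), RP11-572C15.6 (20.1 to 36.3) and BCYRN1 (15.5 to 43.8) overlap, so their order is not fixed. BCYRN1, a primate RNA of RNA polymerase III with an Alu-related part, followed the replicate number, at 17234, 8781 and 7131 normalised counts with dox and 16002, 9950 and 6257 without dox in replicates 1, 2 and 3. How fully libraries of polyadenylated RNA hold BCYRN1 and MALAT1 was not tested, so their ranks describe these libraries only.

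**Figure D4:**
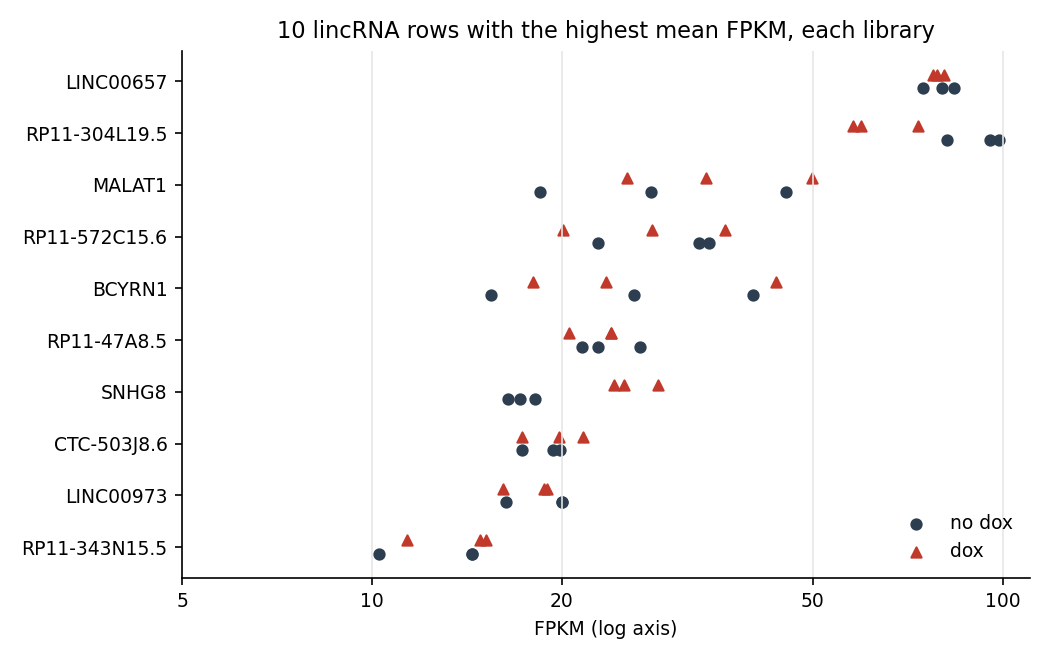
FPKM (x axis, log scale) of the 10 lincRNAs with the highest mean FPKM in each of the 3 no dox (dark circles) and 3 dox (red triangles) libraries. SNHG8 is to the right and RP11-304L19.5 to the left in dox without overlap, and in the other 8 the groups overlap.

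These FPKM values depend on the width the authors used, which is not in every gene the length of 1 transcript. It exceeds the span of the gene on the chromosome in 37 of the 355 lincRNAs, and equals the sum of the lengths of all GENCODE 29 transcripts in 170. For a gene with 1 transcript that sum is the length of the transcript. For SNHG8 the width is 2479 bases and the longest GENCODE 29 transcript 672. With CPM per kilobase of that longest transcript, SNHG8 came to 79.6, level with NORAD at 79.4 and SNHG19 at 77.8, and MALAT1 to 55.01. BCYRN1 has a width of 13458 bases against a transcript of 200 bases, so its level per length cannot be placed. As a share of the summed CPM of the table, the lincRNAs took 0.367% ± 0.00254 (SD, n = 3) with dox and 0.359% ± 0.0146 (SD, n = 3) without, with overlapping ranges.

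The position of the lincRNAs beside coding genes was compared next. Of those that do not overlap a coding gene of the table, 70 begin within 5000 bases past the 3′ end of a coding gene on the same strand. Their log2 differences followed those of that gene across the 70 pairs (Pearson r 0.60, Spearman rho 0.58), and 50 of 70 (71.4%) had the same sign. For the 241 lincRNAs that begin farther from the nearest such gene, r was 0.026 and 49.6% had the same sign. By distance, r was 0.46 up to 1000 bases, 0.75 from 1000 to 2000, 0.59 from 2000 to 5000, 0.32 from 5000 to 10000, 0.099 from 10000 to 50000 and 0.0016 beyond. Within single pairs of libraries r was 0.33, 0.41 and 0.44 for the near and 0.011, 0.069 and 0.010 for the far lincRNAs. Without the 2 pairs whose coding gene had the most extreme difference, r over the near ones was 0.67.

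These are correlations across genes, which share the same 6 libraries and are not replicates, and the limit of 5000 bases was chosen after the data were seen. For comparison, 1121 coding genes that begin within 5000 bases past another coding gene on the same strand gave r 0.091 and the same sign in 51.5%. Coding genes as a class are higher in level (median 912 normalised counts, against 73.1 for lincRNAs), and these sets were not matched on level. The near lincRNAs also had levels related to those of the gene upstream, with r 0.47 between log2 FPKM values against 0.043 for the far ones. The IDs of 55 of the 70 (78.6%) are not in GENCODE 29, against 17 of the 241 (7.05%). The labels and headers do not state whether the authors' counting used the strand. The part of reads from the coding gene in these values was not tested.

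RP11-709B3.2 is an example, 707 bases past the end of ITGA11, which encodes a collagen-binding integrin chain. Its counts were 226, 139 and 103 with dox and 306, 294 and 219 without dox, and those of ITGA11 were 16692, 7967 and 7783 in dox and 19223, 12926 and 11802.5 in no dox replicates. In each the first replicate was the highest in its group and the third the lowest. The changes were -0.86 (adjusted p = 0.235, and 0.00189 with the block) and -0.50 (0.582, and 0.00208 with the block). RP11-690G19.3, 4834 bases past the F-box gene FBXL20, had 103, 125 and 129 in dox and 66.0, 77.1 and 102 in no dox libraries. FBXL20 had 364, 413 and 413 with dox and 225, 262 and 253 without dox, and the changes were 0.55 and 0.68 (adjusted p = 0.0153 and 0.000367 with the block).

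RP1-74M1.3 behind the ephrin receptor gene EPHB2 (-0.37 and -0.20) and RP11-145M9.4 behind the G protein subunit gene GNB4 (-0.32 and -0.24) fell together with the block. RP11-215G15.5 and ANKRD33B differed by 0.49 and 0.53, the coding gene without a call (0.157 with the block). Not every near pair had like values. CTC-296K1.4, 665 bases past the connexin gene GJC1, differed by -0.09 (adjusted p = 0.782 with the block) where GJC1 differed by -0.49 (0.000126 with the block), and LINC00665 rose with the block (0.42) where ZFP14 differed by -0.06.

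**Figure D5:**
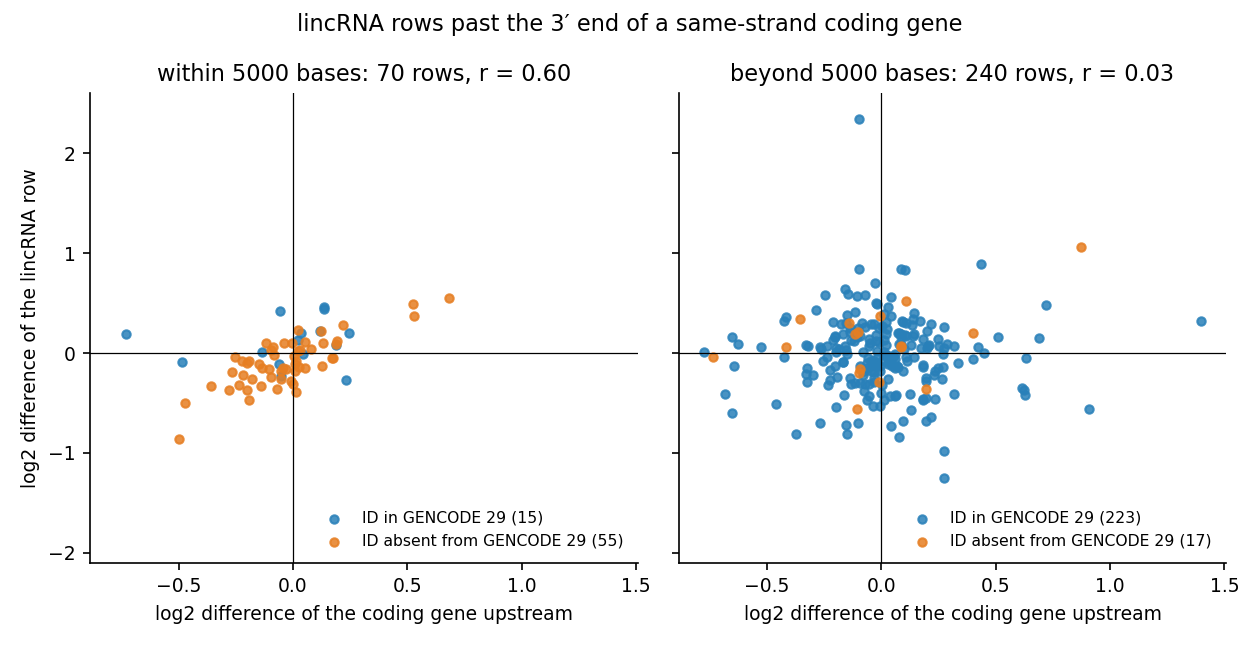
Log2 difference of dox minus no dox of each lincRNA (y axis) against that of the nearest coding gene upstream on the same strand (x axis), for lincRNAs within 5000 bases past its end (left, 70) and beyond (right, 240 with both tested), orange where the ID is absent from GENCODE 29. The left cloud runs along the diagonal with r 0.60, and the right one has no slope (r 0.03).

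Another 40 lincRNAs start within 1000 bases of the start of an oppositely oriented coding gene. Of these, 7 fell and 0 rose with the limma replicate block (17.5%, beside 11.9% of all lincRNAs and 22.5% of all genes, 12.4% lower), and without the block 0 were called. Across the 40 the differences of the lincRNA and the coding gene had r 0.42 and the same sign in 65.0%. In 4 of the 7 the coding gene was lower with the block too: SH3RF3 (-0.56) beside SH3RF3-AS1 (-0.81), the sterol sensor gene INSIG1 (-0.22) beside AC144652.1 (-0.64), SH3TC2 (-0.37) beside CTC-529P8.1 (-0.60), and the DNA damage response gene PAXIP1 (-0.27) beside PAXIP1-AS1 (-0.42). In the other 3 the coding gene was not called, among them TRAF7 (0.11) beside SNHG19 (-0.56) and GMDS (0.09) beside GMDS-AS1 (-0.41). INSIG1 followed the replicate number as its partner did, with 1379, 2815 and 2589 with dox and 1643, 3147 and 3046 without dox, and AC144652.1 had 23.5, 74.2 and 63.5 in dox and 41.3, 118 and 88.4 in no dox libraries. When 1 library was left out without the block, AC144652.1 ran from -1.07 (no dox replicate 1) to -0.14 (dox replicate 1), CTC-529P8.1 from -0.91 (dox replicate 3) to -0.18 (dox replicate 1) and PAXIP1-AS1 from -0.56 (dox replicate 2) to -0.26 (dox replicate 1).

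The lincRNAs were compared with the other classes of genes in the table. Their median log2 difference was -0.018, against -0.027 for 364 antisense RNAs and -0.00037 for 11771 protein-coding genes. Their median standard error was 0.23, beside 0.12 for coding genes, 0.24 for antisense RNAs and 0.26 for 307 pseudogenes. Their median level of 73.1 normalised counts was below the 912 of coding genes and above the 56.1 of antisense RNAs and the 57.4 of pseudogenes. With the block 11.9% of lincRNAs, 7.97% of antisense RNAs and 24.0% of coding genes were called. At like levels the lincRNA share was nearer to that of all genes, with 5.93% against 8.24% below 50 normalised counts, 12.8% against 13.7% from 50 to 200, 20.3% against 22.2% from 200 to 1000 and 21.4% (3 of 14) against 29.2% from 1000 upward. The groups did not overlap in 51 lincRNAs (14.4%), 21 with dox above and 30 with dox below, where the background over all genes was 19.1% (9.03% with dox above).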

How the data were processed

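The data were 6 libraries of polyadenylated RNA, 3 dox and 3 no dox, grouped and numbered by the sample titles. Per the submitters' processing notes the build was hg19 and the tools included TopHat, edgeR, Trimmomatic and bcl2fastq, with no versions given. Not given in the sources used here are the treatment of multi-mapped reads and of strand in counting. Overlapping genes and near-identical copies therefore have uncertain values.

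The authors deposited normalised counts for 13161 genes, a signal scaled to like depth in decimals. They deposited FPKM for 57773 genes too, and the authors' FPKM equals the CPM of their comparison table per kilobase of their gene width (largest relative difference 1.5e-07). Per the file headers, the deposited comparison table of 13008 genes holds the gene's biotype and position, each library's CPM, and for the contrast a log2 fold change, p-values raw and adjusted, and a likelihood ratio score. Divided by what 1 read is worth, all CPM values came out whole (100% in each library, tolerance 0.01), which gave the reads.

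Dox and no dox libraries were compared by two-sided limma-trend tests of log2(normalised count + 1) on genes that reached 10 normalised counts in 3 or more libraries: 13153 passed and 8 did not, 1 of them a lincRNA. A gene was called where p, adjusted after Benjamini and Hochberg across every tested gene, was under 0.05. Because 1 is added before the log2, changes of low genes are understated. The labels do not say what equal replicate numbers share. Across genes, libraries 1, 2 and 3 deviated from their group mean together (correlations 0.745, 0.726 and 0.768), and the numbers were therefore used as pairs, and the fit with the replicate block (2 residual degrees of freedom, against 4) is given beside the first. No pair of libraries in a group differed by as little as sampling noise (chi-square per degree of freedom at least 16.0).

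Named lincRNAs were those called without the block, the 10 largest rises and 10 largest falls called with it, the 10 highest by mean FPKM, and up to 4 members of each role list with the smallest adjusted p. Neighbours and divergent genes, and NEAT1, LINC00665 and CTC-296K1.4, were added after their values were seen. X-inactivation transcripts are counted among the 355, but only JPX and FTX are named, and the others are left out of the role lists. A divergent gene pair is counted but not reported here by name. The members, role lists and markers were chosen with earlier results of these data known. Coordinates of genes are those of the deposited table. GENCODE 29 served by gene ID only, and 275 of 355 IDs were found in it.

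Alternatives were other pseudocounts, filters and scalings, FPKM values, a robust prior, edgeR's quasi-likelihood test and DESeq2 on recovered reads, the replicate block, and leaving out libraries. The limma and edgeR fits were also run on simulated counts with a built-in replicate effect and the same dispersion for every gene. That setting differs from these data, and no result here rests on it. Fits used limma 3.58.1, DESeq2 1.42.0 and edgeR 4.0.16 in R 4.3.3, and tables and figures pandas 2.3.3, matplotlib 3.10.9 and numpy 2.4.6 in Python 3.11.15.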

Additional observations from a re-analysis of the deposited data

How the results depend on the processing

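The replicate block moved the count of called lincRNAs the most, from 3 to 42, and edgeR's quasi-likelihood test with the block gave 43, of which 41 were among the 42. With the block, a pseudocount of 5 gave 43 and log2(FPKM + 0.1) gave 57, both chosen after the data were seen, and leaving out a replicate number gave 16, 29 or 51. The shares of all genes called in these fits are not given here, so the counts are not read as particular to lincRNAs. Without the block, DESeq2 gave 8 calls, leaving out 1 library gave 0 to 0, and other pseudocounts, filters, scalings, the robust prior, FPKM and edgeR stayed within 1.5 times of 3. The median log2 difference over lincRNAs, -0.018 as reported, ran from -0.033 without no dox replicate 1 to 0.013 with FPKM over all alternatives, and leaving out 1 library without the block gave -0.033 to -0.000246. For 55 named genes, 1030 of 1202 alternative values kept direction and side of the threshold, 112 passed where the value reported did not, 20 no longer passed and 40 changed sign, in 12 genes. MEG3 was at 0.021 with FPKM, 0.0041 with TMM, 0.0014 with median-of-ratios and 0.017 with quantile scaling, 0.012 with edgeR, 0.014 with edgeR and the block and 0.0081 with DESeq2, and MEG9 at 0.0053 with edgeR and the block. With the block and 1 replicate number left out, the sign turned in LINC00657 (0.0035), BCYRN1 (-0.037), CTC-503J8.6 (-0.027), MEG3 (0.16), MEG9 (0.030 and 0.017), RMRP (-0.15 and -0.74) and SNHG9 (-0.045). Leaving out 1 library without the block gave log2 differences of -0.074 to 0.017 for LINC00657, -0.040 to 0.62 for MALAT1, -0.36 to 0.11 for RP11-572C15.6, -0.34 to 0.38 for BCYRN1, -0.024 to 0.094 for CTC-503J8.6, -0.093 to 0.19 for RP11-343N15.5, -0.13 to 0.11 for MEG3, -0.38 to 0.12 for MEG9, -0.61 to 0.044 for MIAT, -0.38 to 1.05 for RMRP, -0.15 to 0.025 for SNHG18 and -0.13 to 0.41 for SNHG9. None of these was called without the block in the main fit or with 1 library left out. At least 1 other setting called MALAT1, RP11-572C15.6, MIAT and RMRP. The cause of the changes in sign was not tested.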

Other observations

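Many lincRNAs lie outside the comparison table. Of 6576 gene IDs of the FPKM table that GENCODE 29 classes as lincRNA, 272 are in the comparison table and 6304 are not. Of the latter, 3488 are listed at 0 in every library and 694 are above 0 in every library, the highest being CH17-340M24.3 with 3.39 FPKM on average and 2.92 to 3.69 over the libraries. In 31 of them all no dox libraries are listed at 0 and all dox libraries above 0, against 1, AC020909.2, the other way round. Examples are AL158211.3, with 0.201, 0.336 and 0.166 FPKM in dox replicates 1, 2 and 3, and AP001120.2, with 0.243, 0.203 and 0.134. The dox libraries are the deeper ones of each pair, with 41719959, 49882123 and 25148936 reads against 31307141, 32280300 and 15094498, and the part of depth in this count was not tested. The same count over all genes of the FPKM table is not given here. The 31 against 1 is therefore not read as particular to lincRNAs.

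The RNAs of MALAT1 and NEAT1 together took 0.0478%, 0.0696% and 0.0863% of the summed CPM in dox replicates 1, 2 and 3 and 0.0355%, 0.0572% and 0.0847% in the no dox replicates. The spread between replicate numbers was larger than the difference between dox and no dox within any number.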
